A study of Mus musculus with 12 samples.

Results

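The methylation of 10 genes that identify astrocytes was read from RRBS (reduced representation bisulfite sequencing) of brain DNA from 12 mice. RRBS cuts DNA at CCGG and reads the fragments after bisulfite treatment, so that each cytosine of a CpG gets a count of methylated and of converted reads. The genes were Gfap, S100b, Aqp4, Slc1a2, Slc1a3, Gja1, Glul, Aldh1l1, Sox9 and Fgfr3. Their CpG sites were those within the gene or up to 2 kb upstream (GENCODE vM21 basic set, mm10) that at least 6 of the 12 libraries listed with at least 10 reads. The choice used position and coverage but no methylation value. It gave 1220 sites of 730 CpGs, with the cytosines of both strands as separate sites, among 2156659 such sites on the autosomes and chromosome X. Of the 1220 sites, 586 were listed in all 12 libraries. The animals were 4 wild-type (Wt) mice, of which 3 were labelled female and 1 male, and 8 Tg2576 (Tg) mice, 4 of each sex. All were 11 months old by their labels, and the tissue was hippocampus and cortex mixed. Tg2576 mice carry a transgene for human APP with the Swedish mutation of familial Alzheimer's disease, driven by a prion protein promoter, and Wt mice lack it. The DNA came from all cells of the tissue, so that astrocytes were an unmeasured share of it.

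Astrocytes take up glutamate and potassium at synapses, turn glutamate into glutamine, couple to one another through gap junctions and line blood vessels with water channels on their endfeet. The genes that identify them encode these transporters, enzymes and channels, the filament and calcium-binding proteins of their cytoplasm, and regulators of the astrocyte lineage. In vertebrate genomes CpG-rich promoters are usually unmethylated in all cells, whereas CpG-poor promoters can be methylated in some cell types and not in others, and the Gfap promoter is known to lose methylation as astrocytes form. A level between 0 and 100% in bulk tissue can come from differing cells, alleles or both, and these cannot be told apart here.

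The libraries held 33619981 to 131446104 site reads. The library labelled Wt male had a mean chromosome X level of 19.9%, against 20.7 to 23.0% in the libraries labelled female and 5.50 to 5.67% in the Tg males, so it did not match its label. Some results are also given without it. Each library listed 754 to 1205 of the 1220 sites. At the 586 sites of all 12 libraries the coverage ran from 10 to 158 reads per site and library, with a median of 49. A count of 0 methylated reads at the median coverage allows a level of up to 6.12%, and at 10 reads one of up to 30%, for counting error only. The counts were mostly even. A methylated count of 2 occurred 817 times and a count of 1 occurred 96 times among the 7032 values of these sites, and 71.6% of their coverages were even. Over all sites a count of 2 was also commoner than a count of 1, at 1080060 against 142915 values. Reads without molecular identifiers are not independent molecules. The cause of the even counts was not tested, and the tests were also run on halved counts.

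Most sites of the 10 genes were unmethylated. Of the 1220 sites, 949 (77.8%) had a mean level below 10%, 228 (18.7%) lay between 10 and 80%, and 43 (3.52%) lay above 80%. Over all 2156659 sites these shares were 67.1%, 17.5% and 15.4%. Within 1000 bp of a basic transcription start, 785 of 835 sites were below 10% and 0 were above 80%. In the rest of the gene windows 164 of 385 sites were below 10%, 178 were between the limits and 43 were above 80%. RRBS reached only part of each gene, from 2.38% of the CpGs in the S100b window to 44.4% of those in the Fgfr3 window.

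**Figure D1:**
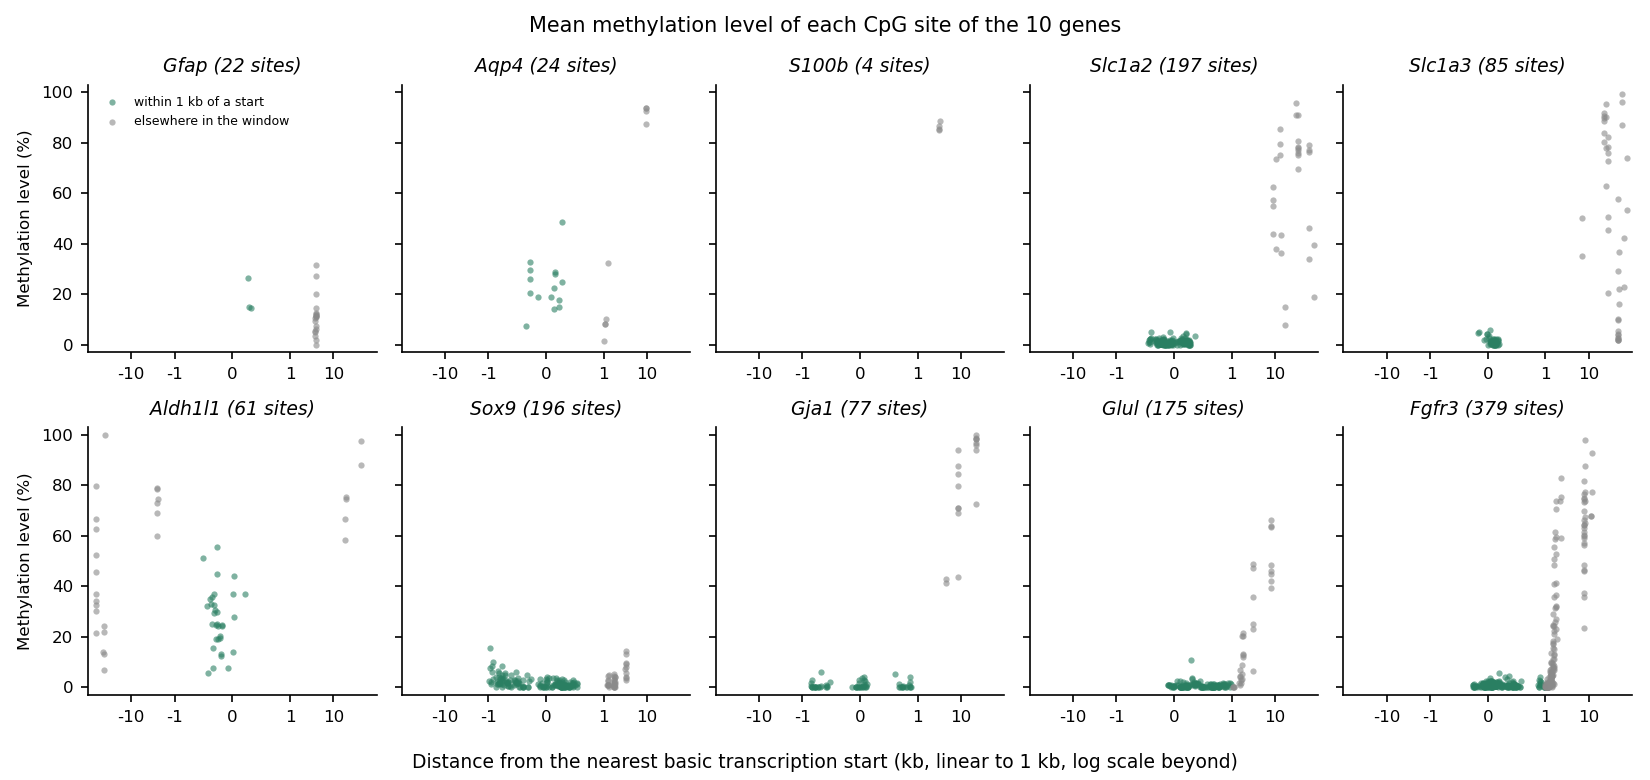
Mean level of each CpG site (y axis, %, over the libraries that list it) against its distance from the nearest basic transcription start (x axis, kb, linear to 1 kb and logarithmic beyond), with 1 panel per gene. Green points lie within 1 kb of a start and grey points elsewhere. Green points mostly stay near 0 in Slc1a2, Slc1a3, Sox9, Gja1, Glul and Fgfr3 and lie mostly above 10% in Gfap, Aqp4 and Aldh1l1.

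The genes fell into those with CpG-rich starts near 0% and those with CpG-poor starts at intermediate levels. Within 1000 bp of a start, the ratio of observed to expected CpGs was 0.756 for Sox9, 0.662 for Glul, 0.605 to 0.737 for the starts of Fgfr3, and 0.655 and 0.640 for the upstream starts of Slc1a2. It was 0.522 and 0.486 for Slc1a3 and 0.480 and 0.549 for Gja1. The mean level of the measured sites around each of these starts was 0.715 to 1.89%. The ratio was 0.288 and 0.286 for Gfap, 0.195 and 0.267 for the measured starts of Aqp4, and 0.220 and 0.214 for Aldh1l1. Around those starts the mean levels were 18.6%, 23.6% and 27.2%. The median ratio over 41249 protein-coding starts was 0.478. The start of S100b, the downstream start of Slc1a2 and the other two starts of Aqp4, with ratios of 0.144, 0.162, 0.184 and 0.146, had no measured site within 1000 bp. Starts of 1 gene share sites, so these values are a description and carry no test.

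**Figure D2:**
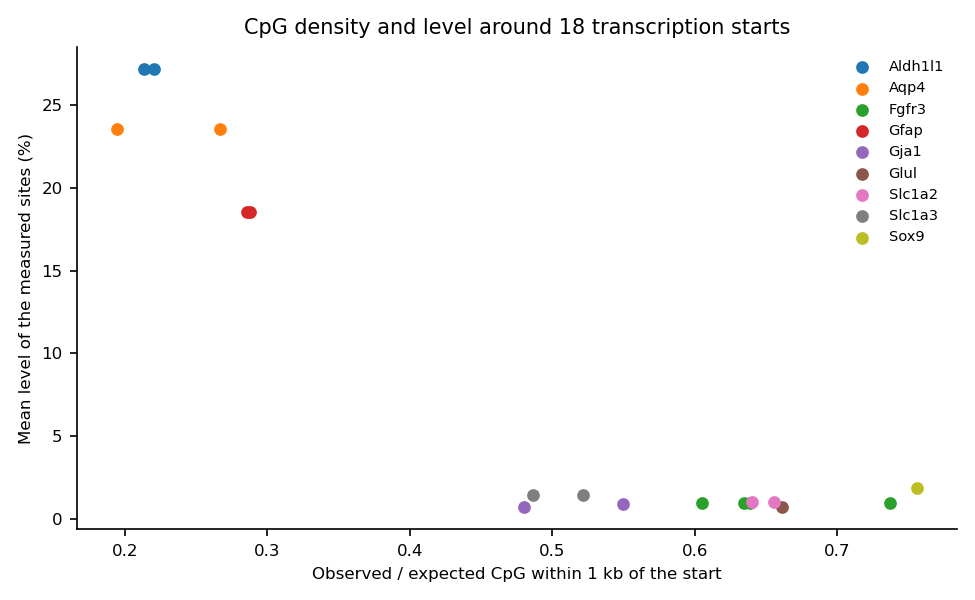
Mean level of the measured sites within 1 kb of each transcription start (y axis, %) against the observed to expected CpG ratio of the same window (x axis), with 1 point per start and 1 colour per gene. The starts with a ratio of 0.480 or more lie below 2%, and those of Gfap, Aqp4 and Aldh1l1, with lower ratios, lie at 18.6 to 27.2%.

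Gfap encodes the intermediate filament protein that marks astrocytes. It lies on the minus strand of chromosome 11 (ENSMUSG00000020932.14, mm10 102887336 to 102900912), and 22 of its 79 listed sites met the coverage rule, 0 of them in all 12 libraries. Of the 22 sites, 3 lay in the coding part of the exon that follows the basic starts, 266 to 317 bp downstream of the nearer start. Their joint level was 0% in Wt female 3, and the library labelled Wt male had 21.4%, these being the Wt animals with enough sites. In 5 Tg animals it was 4.26% at the lowest, 17.1% at the median and 39.6% at the highest. Each animal had 30 to 70 reads there, and the Wt and Tg ranges overlapped. The other 19 Gfap sites lay further into the gene. Over the 17 of them that 8 libraries shared, the level was 5.66% and 9.21% in Wt females 1 and 3 and 18.4% in the library labelled Wt male. In 5 Tg animals it was 6.67% at the lowest, 8.92% at the median and 20.7% at the highest. The ranges overlapped almost entirely, at 11.1% ± 6.61 (SD, n = 3) in Wt and 11.4% ± 5.77 (n = 5) in Tg (overdispersion model, Benjamini-Hochberg adjusted p = 1).

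S100b encodes a small calcium-binding protein that astrocytes also secrete. It lies on chromosome 10 (ENSMUSG00000033208.7, 76253853 to 76261159), and 4 sites of 3 CpGs were measured, all around the start of its coding sequence in exon 2. They are shown from chr10:76257026-76257097 as the only part of the gene that was reached, with the measured CpGs in capitals, here and in the stretches that follow.
S100b exon 2: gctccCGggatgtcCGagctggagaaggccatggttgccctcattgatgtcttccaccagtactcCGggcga
The level was 73.5%, 89.3% and 87.0% in Wt females 1, 2 and 3 and 86.8% in the library labelled Wt male. In 7 Tg animals it was 75.5% at the lowest, 89.3% at the median and 96.8% at the highest. The groups overlapped, and all 11 libraries were highly methylated.

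Slc1a2 and Slc1a3 encode GLT-1 and GLAST, the glutamate transporters of astrocytes. Slc1a2 (ENSMUSG00000005089.15, chromosome 2, 102658659 to 102790784) had 197 sites, of which 167 lay within 1000 bp of a start and all of those were below 10%. Its promoter level, over 141 sites of all 12 libraries, was 0.953%, 1.72% and 0.718% in Wt females 1, 2 and 3 and 0.721% in the library labelled Wt male. In the 8 Tg animals it was 0.49% at the lowest, 0.846% at the median and 1.72% at the highest. The levels of the groups were interleaved. Further into the gene the level was higher, at 54.4% over 4 sites 9053 to 9190 bp downstream of the nearest start, and at 78.6% over 8 sites at the end of coding exon 4 and the start of the next intron. This part is shown from chr2:102739838-102739960, as a methylated exon of a gene with an unmethylated start.
Slc1a2 exon 4: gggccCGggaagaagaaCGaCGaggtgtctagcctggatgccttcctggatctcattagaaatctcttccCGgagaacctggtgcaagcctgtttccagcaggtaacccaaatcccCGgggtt

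Slc1a3 (ENSMUSG00000005360.14, chromosome 15, minus strand, 8634124 to 8710764) had 85 sites. All 44 within 1000 bp of a start were below 10%. In the gene, 4 stretches of 3 to 6 sites each averaged 81.2 to 94.1%, and 1 stretch of 3 sites averaged 26.6%. A stretch of 11 sites in an intron, 46696 to 46913 bp downstream of the start, had a level of 8.38% and lay between the stretch at 26.6% and 3 of the highly methylated ones. It is shown from chr15:8663491-8663718 on the gene's strand for its low level inside the gene.
Slc1a3 intron: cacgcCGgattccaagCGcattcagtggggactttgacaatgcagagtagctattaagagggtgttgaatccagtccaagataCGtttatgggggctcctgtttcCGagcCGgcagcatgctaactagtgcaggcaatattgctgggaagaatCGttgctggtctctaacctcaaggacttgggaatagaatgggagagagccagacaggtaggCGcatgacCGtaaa
Its level was 17.7% and 6.33% in Wt females 1 and 3 and 4.37% in the library labelled Wt male. In 5 Tg animals it was 4.04% at the lowest, 7.47% at the median and 11.7% at the highest. The Tg values lay within the Wt range except the lowest. Single sites in it ranged from 1.78 to 57.8%.

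Gja1 encodes connexin 43, the main gap junction protein of astrocytes. It lies on chromosome 10 (ENSMUSG00000050953.10, 56377330 to 56402513), and all 59 of its 77 sites that lay within 1000 bp of a start were below 10%, with a median of 0%. The other 18 sites had a median of 86.0%. Near the end of the gene, 22545 to 22615 bp downstream of the nearer start, 8 sites averaged 94.1% over 11 libraries. They are shown from chr10:56401628-56401708 as a highly methylated stretch of a gene with an unmethylated start, and 51 of the 81 bases are masked as repeat in the reference. The last of these sites, at 56401703, lies outside the basic transcripts but inside the gene record.
Gja1 3′ part: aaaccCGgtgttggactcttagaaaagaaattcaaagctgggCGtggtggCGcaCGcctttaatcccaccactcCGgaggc
Its level was 90.8%, 90.5% and 96.4% in Wt females 1, 2 and 3 and 96.9% in the library labelled Wt male. The 7 Tg animals lay between 90.4% and 98.0%, with a median of 94.0%. The Wt and Tg ranges overlapped.

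Aqp4 encodes the water channel of astrocyte endfeet. It lies on the minus strand of chromosome 18 (ENSMUSG00000024411.10, 15389496 to 15410982), and its 24 sites fell into parts of very different level. Among its alternative starts, over 9 sites from 143 to 613 bp downstream of the one at 15403758, the level was 24.5% in Wt female 3, and the library labelled Wt male had 14.5%. In 5 Tg animals it was 12.8% at the lowest, 25.1% at the median and 27.2% at the highest. Near the next start upstream, 1006 to 1115 bp downstream of it, 4 sites averaged 7.76% over 11 libraries. A stretch of 4 sites 9426 to 9465 bp downstream of the starts averaged 91.3% over 9 libraries. The Wt and Tg ranges overlapped in each.

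Glul encodes glutamine synthetase, which turns glutamate into glutamine in astrocytes. It lies on chromosome 1 (ENSMUSG00000026473.15, 153899944 to 153909723), where the genes Teddm2 and Mir8114 overlap its start, and 175 sites were measured. The level was higher with distance from the start. It was 0.723% from -44 to 987 bp, 7.59% from 1491 to 1857 bp, 31.4% from 3110 to 3178 bp and 52.4% from 8058 to 8096 bp, each over the animals that listed the stretch (9 to 11).

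Aldh1l1 encodes a folate enzyme, 10-formyltetrahydrofolate dehydrogenase, whose promoter is widely used to mark astrocytes. It lies on chromosome 6 (ENSMUSG00000030088.15, 90486427 to 90600203), and the basic transcripts start at 90550789 and 90550805. Of its 61 sites 54 lay between 10 and 80%, against 14 of 22 in Gfap and 16 of 24 in Aqp4. The part upstream of the basic starts is shown from chr6:90550429-90550619 because its sites held intermediate levels.
Aldh1l1 promoter: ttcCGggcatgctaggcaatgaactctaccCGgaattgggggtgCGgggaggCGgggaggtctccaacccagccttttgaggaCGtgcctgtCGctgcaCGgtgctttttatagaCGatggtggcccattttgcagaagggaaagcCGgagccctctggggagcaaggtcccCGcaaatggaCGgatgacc
All 11 of its CpGs were measured on both strands, and the 22 sites ranged from 7.54 to 55.8%. Over the 7 promoter sites of all 12 libraries the level was 40.7%, 21.5% and 17.7% in Wt females 1, 2 and 3 and 25.6% in the library labelled Wt male. In the Tg animals it was 3.65% at the lowest, 27.7% at the median and 49.6% at the highest. The 8 Tg values reached further both ways than the 4 Wt values, on 107 to 407 reads per animal. The lowest was that of Tg female 4, the library with the fewest reads. Over 23 sites from -502 to -74 bp, in 7 libraries, the Wt range was the wider. It was 18.5 to 38.3% in 3 Wt animals and 21.6 to 30.7% in 4 Tg animals. The dispersion, the ratio of the spread between animals to that of independent reads, was 15.3 over the 7 promoter sites. Its median was 6.97 over the 14 tested regions of the genes and 6.51 over all 25318 gene regions. In the rest of the gene the stretches averaged 43.3% beside the annotated start of the gene record, 17.5% and 77.2% further on, and 71.0% downstream of the basic starts.

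Sox9 encodes a transcription factor that directs glial and astrocyte fate, and Fgfr3 a receptor for fibroblast growth factors of astrocyte precursors. Sox9 (ENSMUSG00000000567.5, chromosome 11, 112782224 to 112787760) had 196 sites, and 192 were below 10%, through its promoter and its coding exons alike. Its most downstream stretch, of 10 sites 3124 to 3209 bp from the start, was at 3.77% and 2.87% in Wt females 1 and 3 and 18.0% in the library labelled Wt male. In 7 Tg animals it was 1.64% at the lowest, 8.59% at the median and 12.6% at the highest. The library labelled Wt male lay above every other animal, and the other two Wt values lay inside the Tg range.

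Fgfr3 (ENSMUSG00000054252.18, chromosome 5, 33721674 to 33737068) had 379 sites, the most of the 10 genes, and they crossed the edge of its CpG island. G630022F23Rik overlaps its start. All 215 sites within 1000 bp of a start were below 10%. Counted from the most upstream basic start and over sites of all 12 libraries, the mean level in Wt was 0% from 1600 to 1800 bp, 5.11% ± 2.37 (SD, n = 4) from 1800 to 1900 bp, 7.19% ± 3.70 from 1900 to 2000 bp and 23.5% ± 10.8 from 2100 to 2200 bp. In Tg it was 0.195% ± 0.552 (n = 8) from 1600 to 1700 bp and 2.56% ± 3.91 from 1700 to 1800 bp, then 2.57% ± 1.80, 5.43% ± 2.28 and 31.5% ± 11.6 over the same steps. In both genotypes the mean was below 10% up to 2000 bp and above it from 2100 bp. The part beyond 2200 bp is shown from chr5:33723934-33724114, in an intron, because it lies beyond that edge, with sites at 23.1 to 73.9%.
Fgfr3 island edge: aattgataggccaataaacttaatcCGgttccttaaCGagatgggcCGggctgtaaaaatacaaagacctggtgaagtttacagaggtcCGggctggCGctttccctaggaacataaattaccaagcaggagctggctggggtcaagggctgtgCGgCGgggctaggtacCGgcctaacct
In the last of these steps, from 2100 to 2200 bp, the level was 39%, 15.0% and 22.3% in Wt females 1, 2 and 3 and 17.8% in the library labelled Wt male. In the Tg animals it was 20.9% at the lowest, 28.6% at the median and 58.1% at the highest. The highest Tg value was that of Tg female 4, the library with the fewest reads. Further on, 7678 to 8001 bp from the nearest start, 18 sites averaged 60.8% over 6 libraries.

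**Figure D3:**
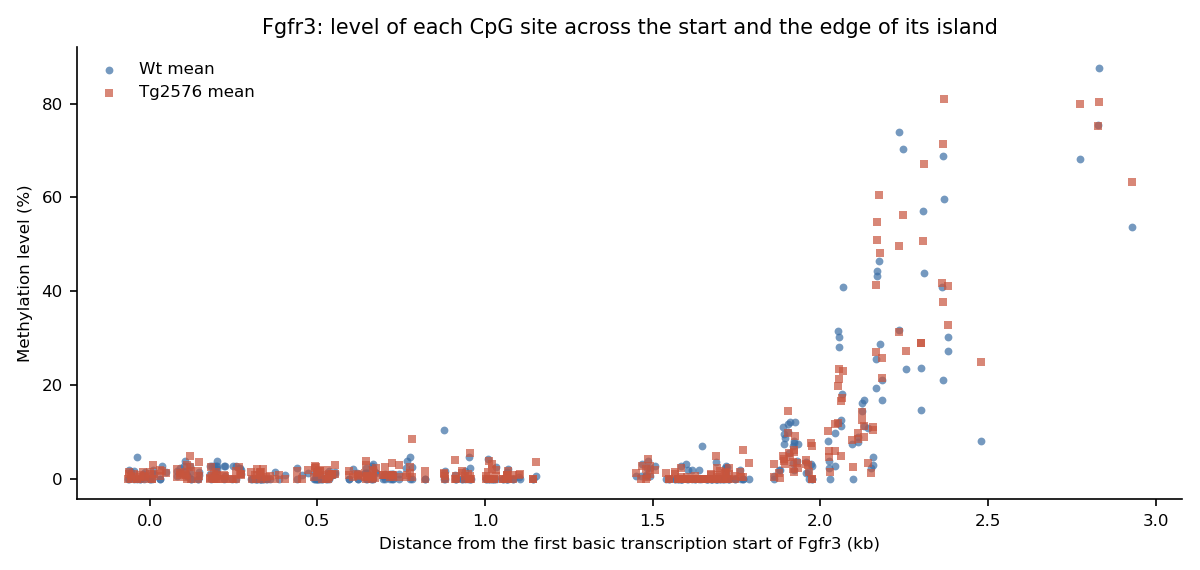
Mean level of each Fgfr3 site in Wt (blue circles) and Tg2576 animals (red squares) (y axis, %) against the distance from the most upstream basic transcription start (x axis, kb). Both genotypes stay near 0 over the start and are higher beyond about 2 kb.

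The genotypes were compared first at single sites, to ask where the transgene goes with a change of methylation. A site was called differentially methylated at an adjusted p under 0.1 (Benjamini-Hochberg over all sites) and a difference of at least 10 points between read-weighted levels, with sex as a covariate. By the binomial model, which takes reads as independent, 3 of the 586 sites of these genes were called, against 16884 of 980547 sites (1.72%) in all. All 3 were higher in Tg, where 0.928% of all sites were. By the overdispersion model, which lets animals differ by more than counting error, 0 of the 586 were called and 0 of 980547 (0%) in all, with a smallest adjusted p of 0.422. At an unadjusted p under 0.05 that model had 58 of 586 sites, or 9.90%, against 10.9% of all sites. With halved counts the binomial model called 0 of the 586, against 1344 of 980547 sites in all. With strands summed it called 0 of 203 CpGs, against 1558 of 327012 in all. The shares of the genes' sites were near or below those of the whole table. Read-weighted levels were higher in Tg at 277 sites, lower at 232 and equal at 77, with a median difference of 0 points, as over all sites.

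When sites of at least 6 libraries entered, the binomial model called 46 of 1209 sites against 5.82% of all, and the overdispersion model 0, against 0% of all. Of the 46, 28 were higher in Tg, where 3.14% of all sites were, and 18 were lower, where 2.68% were. The largest differences each way, named after their values were seen, rested on few animals. In Slc1a2, a CpG of a coding exon was lower in Tg. Its plus-strand site (102767052) was at 66.7% and 100% in Wt females 1 and 3 and 44.4% in the library labelled Wt male, and in 4 Tg animals at 0%, 0%, 0% and 26.7%. The groups did not overlap there, on 12 to 35 reads per animal (-61.3 points, overdispersion adjusted p = 0.599). Its minus-strand site (102767053) was at 100% and 71.4% in Wt females 1 and 3 and at 0%, 0%, 30% and 76.5% in 4 Tg animals, where the groups overlapped (-54.9 points, overdispersion adjusted p = 0.785). In Aldh1l1, a pair of neighbouring coding sites was higher in Tg. At 90569868 the level was 40% and 17.4% in Wt females 1 and 3 and 53.8 to 84.6% in 4 Tg animals (48.9 points, overdispersion adjusted p = 0.599). At 90569823 it was 50% and 34.8% in Wt and 58.3 to 100% in Tg (38.1 points, overdispersion adjusted p = 0.659).

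Among the 3 called sites of all 12 libraries, 2 lay 11 bases apart at the island edge of Fgfr3. At position 33723889 on the plus strand, in an intron of the basic transcripts, the level was 48.6%, 15.0% and 20.4% in Wt females 1, 2 and 3 and 17.9% in the library labelled Wt male. In the Tg animals it was 20% at the lowest, 34.3% at the median and 88.9% at the highest. The ranges overlapped, and the highest Tg value, of Tg female 4, rested on 18 reads. The read-weighted difference was 11.9 points (binomial adjusted p = 0.000310, overdispersion adjusted p = 0.492). At 33723900 it was 10.2 points (binomial adjusted p = 0.00477, overdispersion adjusted p = 0.539), with Wt levels of 34.5 to 78.4% and Tg levels of 37.8 to 100%. Without the library labelled Wt male the differences at these 2 sites were 9.68 and 6.89 points, under the minimum of 10. Leaving out each animal in turn gave 7.30 to 19.9 points at the first and 3.96 to 21.5 at the second. Between these 2 sites, at 33723893, the dispersion was 7.86, the largest of the 586 sites, and the same animals were highest, Wt female 1 at 78.4% and Tg female 4 at 100%. The coverages of the 3 sites differed by at most 2 reads in each library, so the sites are not independent. On the minus strand the sites at 33723890 and 33723901, listed in 11 libraries, were also higher in Tg, by 6.82 points (overdispersion adjusted p = 1) and 21.1 points (overdispersion adjusted p = 0.599, binomial adjusted p = 0.00706).

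The remaining called site of all 12 libraries lay in Aldh1l1 at 90548259 on the plus strand, at -2530 bp from the nearer basic start and inside the gene record. It is shown from chr6:90548249-90548331, where it is the cytosine of the middle measured CpG.
Aldh1l1 upstream: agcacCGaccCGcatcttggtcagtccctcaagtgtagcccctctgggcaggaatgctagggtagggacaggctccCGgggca
The level was 78.6%, 87.5% and 80% in Wt females 1, 2 and 3 and 38.1% in the library labelled Wt male. In the Tg animals it was 63.6% at the lowest, 85.5% at the median and 100% at the highest. The library labelled Wt male alone lay below every Tg animal. The difference was 17.0 points (binomial adjusted p = 0.0137, overdispersion adjusted p = 0.539), and it was 1.44 points without that library and -8.16 points among the animals labelled female. On the minus strand of the same CpG, in 9 libraries, the mean was 77.5% in Wt and 79.1% in Tg.

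The site with the smallest overdispersion p of each gene was taken among the sites of all 12 libraries, and for Gfap, which has none, among those of at least 6. At a Slc1a3 promoter site (8710272) all 4 Wt animals were at 0%, and Tg animals ran from 0 to 10.8% with a median of 2.09%. At a Glul promoter site (153900824) all 8 Tg animals were at 0%, and Wt animals were at 12.7%, 0%, 2.25% and 2.86%, in the order used above. A Slc1a2 promoter site (102658410) was at 0% in the 8 Tg animals. It was at 4.17%, 0% and 1.59% in Wt females 1, 2 and 3 and 4.35% in the library labelled Wt male. A Fgfr3 promoter site (33722388) was at 0% in every animal except the library labelled Wt male, at 10.8%. The Sox9 coding site 112783945 reached 20% in Tg, in Tg female 4 on 20 reads, and 1.71% in Wt, with a median of 0% in each genotype. Their adjusted p was 0.422 in each case. At the Gfap site, in 8 libraries, 3 Wt animals had 0%, 26.7% and 37.5% and 5 Tg animals 0 to 15.8% (adjusted p = 0.60 over the sites of at least 6 libraries). The sites so chosen in Aqp4 (15406973), S100b (76257041) and Gja1 (56401703) had adjusted p-values of 0.580, 0.986 and 0.746.

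Reads were then summed over each gene's promoter, the sites within 1000 bp of a start, and over the rest of its window, to ask whether differences reached beyond single sites. With at least 3 sites of all 12 libraries, 14 regions of 8 genes could be tested, and Gfap and S100b had none. By the overdispersion model 0 of the 14 were called for genotype, against 3 of 25318 regions (0.0118%) in all, and the smallest adjusted p of the 14 was 0.792. In 14 of 14 regions the Wt and Tg ranges overlapped, where 0.367% of all regions did not overlap. At an unadjusted p under 0.05 there were 3 of the 14, against 5.93% of all regions. The largest difference of means was 3.69 points, in the part of Aldh1l1 outside its promoter. It was 0.579 points there without the library labelled Wt male. Over the 14 regions the median difference was -0.129 points, with 6 higher and 8 lower in Tg, against 0.0430 points over all regions.

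**Figure D4:**
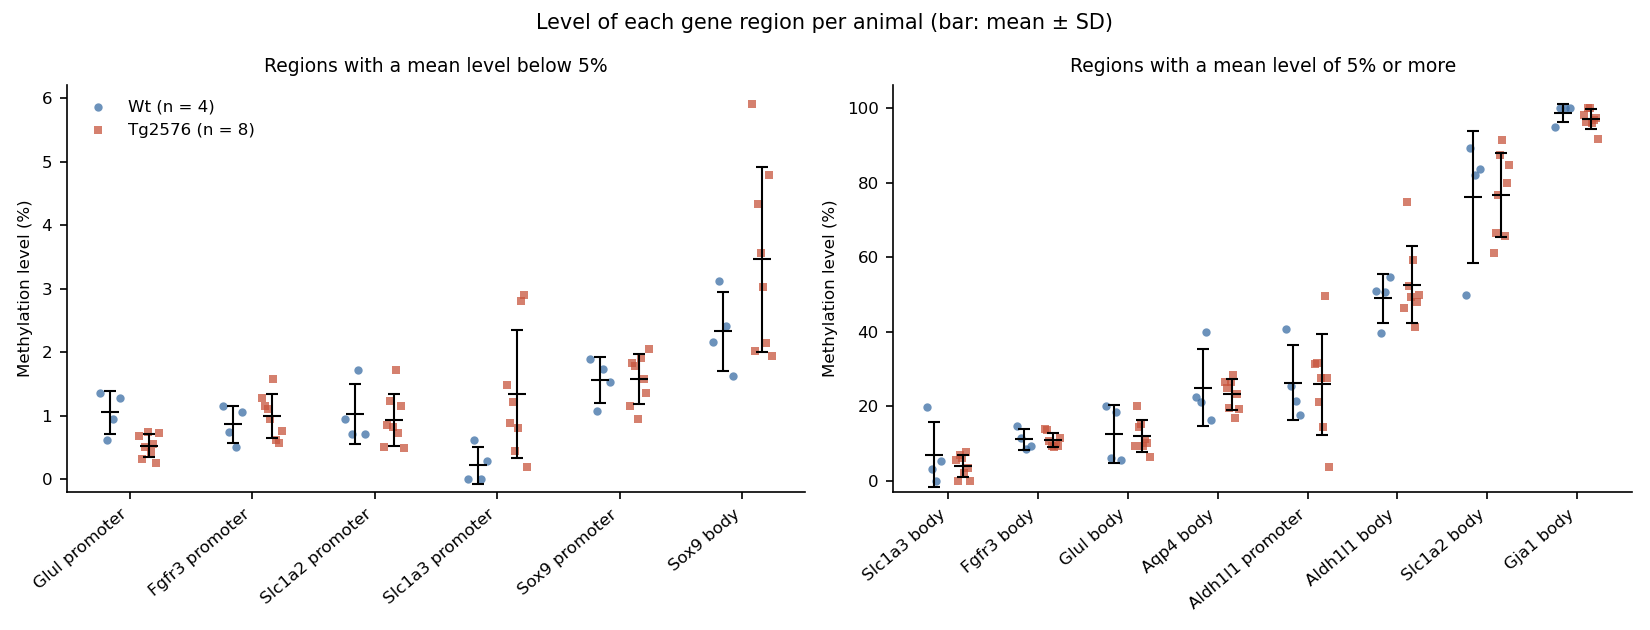
Level of each of the 14 gene regions (y axis, %) in every animal, with Wt as blue circles (n = 4) and Tg2576 as red squares (n = 8), and black bars for the mean ± SD. The left panel holds regions with a mean below 5% and the right panel the others. The Wt and Tg points overlap in all 14 regions.

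The 3 regions under that unadjusted threshold had levels below 6% in every animal. The Slc1a3 promoter was at 0%, 0% and 0.283% in Wt females 1, 2 and 3 and 0.616% in the library labelled Wt male. In Tg it was 0.198% at the lowest, 1.05% at the median and 2.90% at the highest. The Tg mean was higher, at 1.34% ± 1.01 (SD, n = 8) against 0.225% ± 0.293 (n = 4; overdispersion adjusted p = 0.792), and the Wt mean was 0.0942% without the library labelled Wt male. Over the 36 promoter sites of the CpG stretch there, in 10 libraries, the difference was smaller, with 0.741% ± 0.264 in Wt (n = 3), 1.08% ± 0.721 in Tg (n = 7) and Wt female 1 at 1.05% (overdispersion adjusted p = 0.968). The Glul promoter was at 1.36%, 0.954% and 1.28% in Wt females 1, 2 and 3 and 0.621% in the library labelled Wt male. In Tg it was 0.255% at the lowest, 0.538% at the median and 0.745% at the highest. The library labelled Wt male was the Wt animal that lay within the Tg range (overdispersion adjusted p = 0.799), and at sites with at least 20 reads the difference was 0.0941 points the other way. The part of Sox9 outside its promoter was at 2.16%, 2.41%, 1.62% and 3.12% in the Wt animals, in the same order. In Tg it was 1.94% at the lowest, 3.29% at the median and 5.91% at the highest (overdispersion adjusted p = 0.807).

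The regions that held intermediate levels varied between animals of 1 genotype by more than the genotypes differed. The Fgfr3 region outside its promoter was at 11.1% ± 2.75 in Wt and 11.0% ± 1.93 in Tg over 39 sites. That of Aldh1l1 was at 49.0% ± 6.5 and 52.7% ± 10.4 over 6 sites. That of Glul was at 12.6% ± 7.83 and 12% ± 4.30 over 9 sites, and that of Slc1a2 at 76.3% ± 17.8 and 76.8% ± 11.2 over 3. The Slc1a3 region outside its promoter was lower, at 7.05% ± 8.78 and 4.02% ± 3.08, with Wt female 1 at 19.8%. It held only 4 sites, and the 41 Slc1a3 sites outside the promoter that met the coverage rule had a median of 50.6%. Wt female 1 was the highest Wt animal in 7 of the 14 regions, and its mean autosomal level, 6.06%, was the highest of the 12 libraries.

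By sex, 0 of the 14 regions were called, against 3 of 25318 (0.0118%) in all, and 0 of the 14 had an unadjusted p under 0.05, against 7.09% of all regions. The smallest p was 0.0826. These tests counted the library labelled Wt male as male, and the animals with a male X level were all Tg. Without that library 0 of the 14 were called and 359 of 25318 in all.

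CpG stretches, groups of at least 3 sites with gaps of at most 200 bp, were tested over the libraries that listed at least 80% of their sites and over the sites that all of those listed, an analysis chosen after seeing that Gfap and S100b had no testable region. The 10 genes held 34 stretches, of which 13 averaged below 10%, 14 between 10 and 80% and 7 above 80%. By the overdispersion model 0 of the 34 were called, against 0 of 85451 (0%) in all, with a smallest adjusted p of 0.968, and 2 of 34 had an unadjusted p under 0.05, against 4.67% of all stretches. Both were promoter stretches, of Glul and Slc1a2, and both were lower in Tg. In 3 of the 34 the Wt and Tg ranges did not overlap, where 4.03% of all stretches did not. The Aldh1l1 stretch 19018 to 19254 bp downstream of the start was at 61.9% and 48.6% in 2 Wt females and at 74.2 to 86.2% in 4 Tg animals. It holds the coding sites 90569823 and 90569868 named above, in the same animals, so it is not a separate observation. The Aldh1l1 stretch at -43764 to -43517 bp was at 38.2% and 21.6% in the same Wt females and at 3.85 to 17.5% in 4 Tg animals. The Glul promoter stretch was at 0.754 to 1.32% in 3 Wt animals and at 0.230 to 0.745% in 6 Tg animals. The first of these was higher in Tg and the other two were lower, and all had an adjusted p of 0.968.

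**Figure D5:**
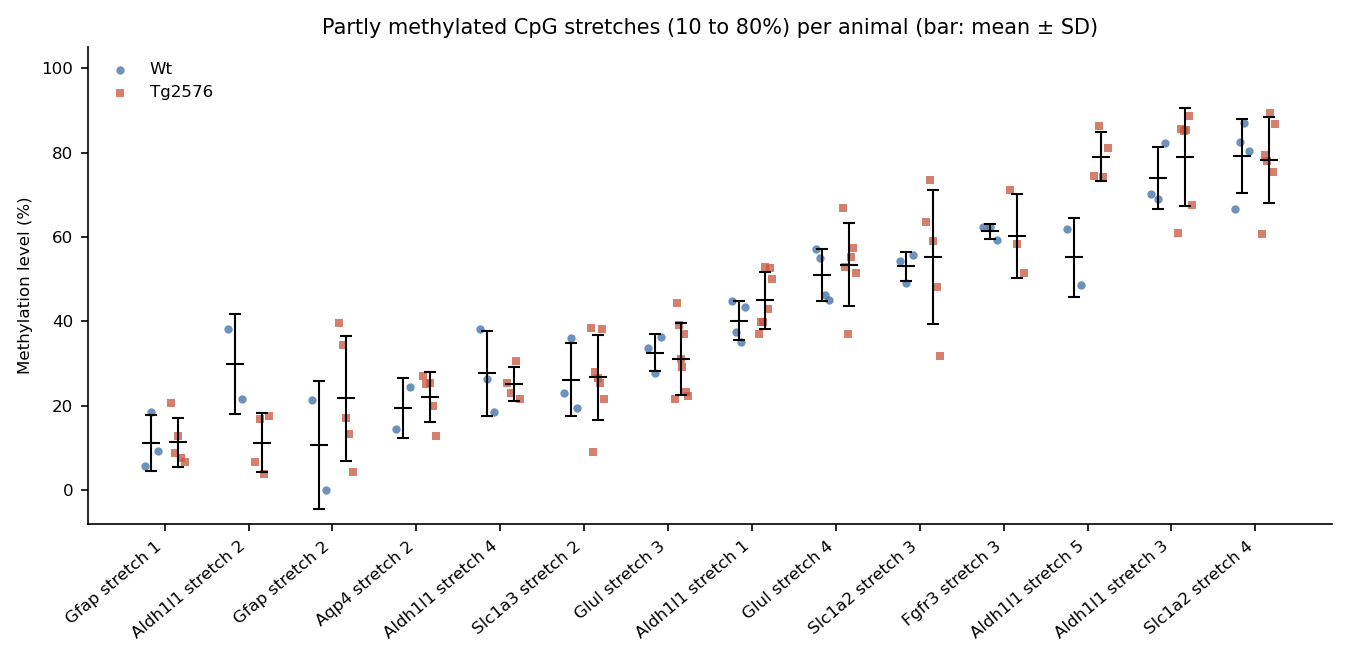
Level of the 14 partly methylated CpG stretches (y axis, %) in each animal that listed at least 80% of the sites, with Wt as blue circles and Tg2576 as red squares, and black bars for the mean ± SD. Points of both genotypes overlap in 12 of the 14 stretches, and the exceptions are 2 stretches of Aldh1l1.

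Other genes of astrocytes were described by the same regions. Of 30 genes of mature astrocytes 22 had 34 regions, of which 19 were higher and 15 lower in Tg, and 2 had an unadjusted p under 0.05. Of 20 genes that specify astrocytes 19 had 32 regions, with 15 higher, 17 lower and 3 under that p. Of 30 genes of reactive astrocytes, those induced by injury, 19 had 24 regions, with 12 higher, 12 lower and 4 under that p. Over all 25318 regions 5.93% were under that p. None of the regions of these lists was called, where 0.0118% of all regions were. Their median levels were 2.26%, 1.05% and 2.86%, against 8.03% over the 14 regions above and 1.29% over all regions. The share of regions outside promoters differed, with 8 of the 14 regions above and 8983 of all 25318. Over promoters alone the medians were 1.25%, 0.832% and 1.80%, against 0.970% in the 6 promoters tested among the 10 genes and 0.915% over all. The promoters of Gfap, Aqp4 and Gja1 were not among these 6. Around their measured starts the mean levels were 18.6%, 23.6% and 0.749 to 0.908%. Outside promoters the medians of the lists were 23.8%, 4.78% and 34.1%, against 18.0% in the 8 regions tested among the 10 genes and 15.4% over all. The 3 regions with the smallest p were the Steap4 promoter, the part of Cbs outside its promoter and that of Id1. Steap4 encodes a metalloreductase of reactive astrocytes, and its promoter was at 0.584%, 2.36%, 2.62% and 1.03% in the Wt animals and at 2.47 to 6.25% in Tg, with a median of 3.72% (adjusted p = 0.718). Cbs, which makes cystathionine, was at 65.5% ± 3.49 in Wt and 70.5% ± 5.90 in Tg (adjusted p = 0.789). Id1, an inhibitor of differentiation factors, was at 0% in all 4 Wt animals and at 0 to 0.816% in Tg (adjusted p = 0.793).

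Of genes of the other cells of the tissue, 31 regions of neuron genes, 17 of oligodendrocyte genes, 8 of microglia genes and 9 of endothelial genes were tested. An unadjusted p under 0.05 was found in 2, 2, 0 and 0 of them, against 5.93% of all regions, and 0 were called, against 0.0118%. Their median differences between Tg and Wt were -0.189, -0.646, 0.197 and 0.0787 points. Methylation of these genes does not give the share of each cell type, and the cell makeup of the samples was not measured.

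The strands of a CpG mostly had like levels. Of 490 CpGs of the 10 genes with both strands listed, the median difference between strands was 0.838 points, 30 differed by more than 10 points and 8 by more than 20. The largest difference, 36.7 points, was in Slc1a3 at 8682710, with 45.4% on the plus strand and 82.1% on the minus strand.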

How the data were processed

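Brain DNA of 4 Wt and 8 Tg2576 mice was studied by RRBS. The authors had paired-end reads (Illumina HiSeq 2000) mapped to mm10 with Bismark and read the alignments into methylKit. Tool versions are not given in the sources used here. The deposited files hold, per cytosine, read counts as coverage, methylated and converted reads, 1 file per animal, with strands apart and a smallest coverage of 10.

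Here, the libraries were joined by position on the autosomes and chromosome X, without 11 positions that a file gave repeatedly. Genotype was tested by logistic regression of the counts on sex and genotype, with a likelihood-ratio test (binomial model) or an F test after division by a dispersion of at least 1 (overdispersion model), in Python 3.11.15 with numpy 2.4.6 and scipy 1.17.1. Sites and covariate follow the study's methods. P-values were adjusted over the whole table by the Benjamini-Hochberg method. Named sites were those called, the one with the smallest overdispersion p of each gene and the one with the largest dispersion. Of the other astrocyte genes, those called were to be named, or otherwise the 3 regions with the smallest p. Alternatives varied the covariate, animals, read minimum, strands, thresholds, region limits and model (limma 3.58.1 on logit levels with a pseudocount of 1 read) and left out each animal in turn. The stretch analysis and the halved counts were chosen after seeing the data. Genes, lists and rules were chosen with earlier results of these data known. Both models were tested on simulated data. Sequences are from the RefSeq GRCm38.p6 genome, whose chromosomes are those of mm10. All 1220 sites lay at a CpG there. The sequence of 1 stretch is not reported here.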

Additional observations from a re-analysis of the deposited data

Results flagged for a closer look

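In 72 groups of 4 to 8 animals, over the 14 gene regions and 34 stretches, 6 had 1 animal far from the others by Dixon's test, and chance flags about 1 in 20 groups. In the part of Gja1 outside its promoter Wt female 1 was at 95% with the other Wt animals at 100%, and Tg female 4 was at 91.7% with the other Tg animals at 96.2 to 100%. In the S100b stretch Wt female 1 was at 73.5%, against 86.8 to 89.3% in the other Wt animals. Tg female 3 was at 4.01% in the Sox9 stretch 1682 to 1802 bp from the start, against 0.951 to 1.97%, and at 85.7% in the Slc1a3 stretch 59401 to 59478 bp from the start, against 94.4 to 97.5%. Tg male 3 was at 69.3% in the Slc1a3 stretch 22028 to 22127 bp from the start, against 90.8 to 94.9%. Their causes were not tested.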

How the results depend on the processing

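The overdispersion model called 0 sites of the 10 genes and 0 of their regions or stretches under every alternative run. The binomial model called 3 sites of the 10 genes, against 16884 of 980547 in all. It called 15 with a minimum of 5 points (36112 of 980547 in all) and 5 among animals labelled female (20867 of 980547). With sites of at least 6 libraries it called 46 of 1209 (124091 of 2132653 in all). It called 0 with at least 20 reads (1783 of 375460 in all), with strands summed (1558 of 327012) or with halved counts. Halving the counts left 1344 called sites of all 980547. Without 1 animal the number called in the 10 genes ranged from 1 (without Wt female 2 or Tg female 4) to 7 (without Wt female 1). Over all sites it ranged from 13286 to 21994. Without the library labelled Wt male, the 3 sites called with all animals differed by 9.68, 6.89 and 1.44 points, below the minimum of 10. The 2 sites called in that run were others. Each animal's median level over the 14 regions averaged 7.49%, and 1.5% over the 8 regions left with at least 20 reads.

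No difference of a region was called, and signs turned in several. Among animals labelled female they were -0.100 points (Fgfr3 promoter), 0.304 (Fgfr3, rest), 1.49 (Aldh1l1 promoter), -5.72 (Aldh1l1, rest) and -0.189 (Sox9 promoter), and -8.16 at the called Aldh1l1 site. With at least 20 reads the Glul promoter gave 0.0941. With mean site levels Glul outside its promoter gave 0.843, Fgfr3 outside its promoter 0.311 and the Sox9 promoter -0.0791. With promoters of 2000 bp Glul outside them gave 2.12 and the Fgfr3 promoter -0.00569. Without 1 animal the range was -2.94 to 1.88 for Glul, -8.27 to 4.85 for Slc1a2, -0.997 to 1.06 for Fgfr3, -5.37 to 1.23 for Slc1a3 and -4.74 to 3.15 for Aqp4, all outside promoters, and -0.199 to 0.143 for the Slc1a2, -3.81 to 4.34 for the Aldh1l1 and -0.147 to 0.129 for the Sox9 promoter. The cause was not tested.

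No paired analysis was run, because the labels name no pairing of Wt with Tg animals. RRBS leaves most CpGs of these genes unmeasured, and a count of 0 at the median coverage does not exclude levels of up to 6.12%.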
